A study of Akebia trifoliata with 9 samples.

Results

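The leaf transcripts described here are 200 identifiers of a transcriptome assembly that stood lower in leaves of Akebia trifoliata sprayed with simulated acid rain than in leaves sprayed with distilled water, to about the same level with and without curcumin. They were chosen from 82321 identifiers on the deposited TPM values (the share of a transcript in its library after correction for its length). The lowest Control value had to exceed all 6 values of the acid rain libraries, the Control mean had to reach 5 TPM, and the Control mean plus 1 had to be at least 2 times the larger of the acid rain group means plus 1. The means plus 1 of both acid rain groups had to lie within 1.5-fold of each other. These conditions were met by 325 identifiers, and the 200 with the largest ratio of Control to the higher acid rain group were kept as members. All 3 groups entered the choice, so the levels of the members and the differences between groups are a description and carry no test.

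Akebia trifoliata is a woody climber grown for its fruit and its medicinal stems. The study has 9 leaf libraries in 3 groups of 3. The CUR50 plants received curcumin at 50 µmol/L by irrigation of the roots and had their leaves sprayed with simulated acid rain. The CUR0 plants had the same spray of pH 2.0 and no curcumin. The Control plants received distilled water by both routes, and all treatments ran for 28 days. All 3 groups are listed with irrigation of 500 mL at intervals of 2 days. No group received curcumin without acid rain, so a change common to CUR50 and CUR0 compares the spray of acid rain with one of water and says nothing of curcumin alone. The series describes 3 biological replicates per group, but its growth protocol gives different numbers of plants and replicates, so the SDs below are spreads over libraries that may be partly technical.

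Acid rain brings protons together with sulfate or nitrate onto the leaf surface, where it can damage the cuticle, the stomata and the photosynthetic mesophyll and is known to provoke oxidative stress. Curcumin, the yellow polyphenol of turmeric, is known as an antioxidant. A transcript that falls under the spray and stays low with curcumin is one whose level was not brought back to that of watered leaves. The rule allows a limited difference between the acid rain groups, so a member may stand somewhat nearer to watered leaves with curcumin than without it. In a bulk leaf sample, fewer cells of a type and less RNA per cell cannot be told apart.

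None of the 82321 identifiers, and none of the 200 members, matched the 32005 genes of the reference table for this species, so the members carry no gene name, function or position here and no sequence is shown. For the same reason the leaf could not be checked against marker genes, and which organism each assembled transcript came from is not known. The identifiers have the form that the Trinity assembler writes, in which identifiers that share a cluster were assembled from overlapping reads. Members other than the 2 named below are described by their rank.

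Between libraries of the same group, correlations of log2(TPM + 1) over the 31754 identifiers that reached 1 TPM in 3 or more libraries ran from 0.895 to 0.919 in CUR50, from 0.944 to 0.95 in CUR0 and from 0.947 to 0.951 in Control. The table holds no read numbers, so the depth is unknown and a value of 0 gives no upper limit. As a share, the TPM of a member also falls where other transcripts rise.

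Together the members held 0.125% ± 0.031 of all TPM in CUR50, 0.119% ± 0.015 in CUR0 and 0.522% ± 0.045 in Control (SD, n = 3 each). Their summed TPM was 1403, 1455 and 890.1 in CUR50 replicates 1, 2 and 3, 1364, 1102 and 1092 in CUR0 replicates 1, 2 and 3, and 4709, 5569 and 5371 in Control replicates 1, 2 and 3. The highest acid rain library, CUR50 replicate 2, lay far below the lowest Control library, replicate 1, and the ranges of CUR50 and CUR0 overlapped. The sum rests on a small number of members: the 10 with the highest Control mean made up 37.0% of it in Control and the 50 highest 74.5%.

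**Figure D1:**
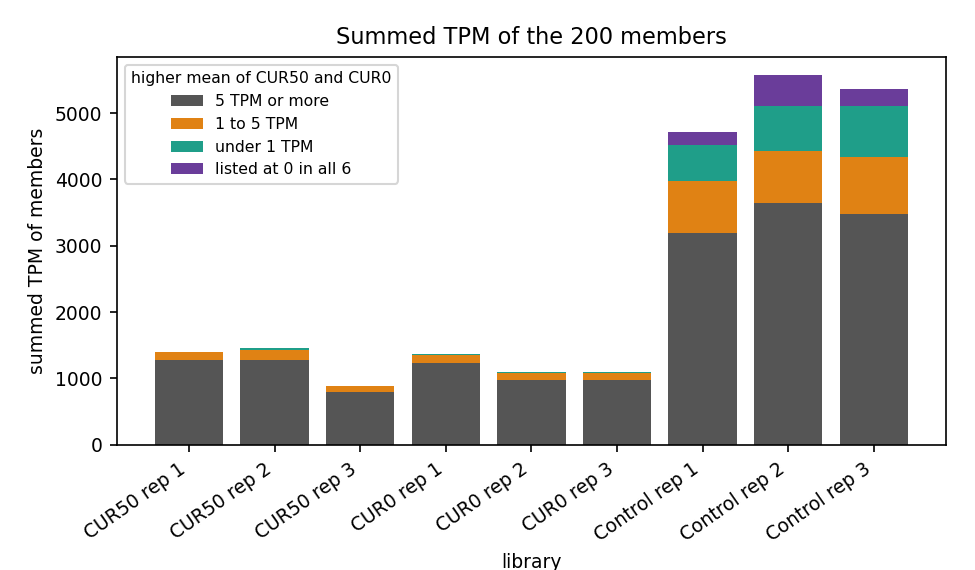
Summed TPM of the 200 members (vertical axis, from 0) in each library, with bars divided by the higher of the CUR50 and CUR0 means of each member. The 3 Control bars stand between 4709 and 5569 TPM, and the 6 acid rain bars between 890.1 and 1455 TPM; members that kept 5 TPM or more make up most of every bar.

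The typical member was a transcript of low abundance. The median of the member means was 0.810 TPM in CUR50, 0.715 TPM in CUR0 and 9.04 TPM in Control. In Control, 111 members had a mean of 5 to 10 TPM, 34 of 10 to 20 TPM, 44 of 20 to 100 TPM and 11 of 100 TPM or more. The ratio of the Control mean plus 1 to the higher acid rain mean plus 1 ranged from 2.46 to 63.4 with a median of 5.2. It was 10 or more in 22 members, 5 to 10 in 81, 3 to 5 in 34 and under 3 in 63.

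At the lower end of the ratio, the member ranked 200 had a ratio of 2.463, with means of 1.2 TPM in CUR50, 1.71 TPM in CUR0 and 5.68 TPM in Control. The first identifier not kept had a ratio of 2.460, with means of 1.34, 2.22 and 6.92 TPM in the same groups. The choice at this end therefore separates identifiers of nearly equal values. The lowest Control mean among members was 5.03 TPM, and the nearest identifier under that limit had 4.97 TPM.

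The member with the largest ratio was TRINITY_DN12491_c0_g1, the only identifier of its cluster. It was listed at 0, 1.1 and 0.270 TPM in CUR50 replicates 1, 2 and 3, at 0.210, 0.980 and 0 TPM in CUR0 replicates 1, 2 and 3, and at 41.2, 119 and 114 TPM in Control replicates 1, 2 and 3. Every acid rain library was near or at 0, the acid rain groups overlapped, and Control replicate 1 was well under the other 2 Control libraries. On the log2(TPM + 1) scale the difference was -5.91 ± 0.47 for CUR50 against Control and -5.96 ± 0.47 for CUR0 against Control (limma estimate ± SE).

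The member with the highest Control mean was TRINITY_DN20237_c1_g2, which shares its cluster with 1 other identifier and ranked 131 by ratio. It stood at 124, 131 and 63.9 TPM in CUR50 replicates 1, 2 and 3, at 121, 93.3 and 85.3 TPM in CUR0 replicates 1, 2 and 3, and at 305, 365 and 359 TPM in Control replicates 1, 2 and 3. This transcript fell to a lower level and stayed abundant: it averaged 106 ± 37 TPM in CUR50, 100.03 ± 19.00 TPM in CUR0 and 343 ± 33 TPM in Control (SD, n = 3 each). The lowest of its acid rain values was in CUR50 replicate 3. The difference in log2(TPM + 1) was -1.74 ± 0.26 for CUR50 against Control and -1.78 ± 0.26 for CUR0 against Control (limma estimate ± SE).

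The members differed in how much of their level was left under acid rain. They can be ordered by the higher of their CUR50 and CUR0 means. In 33 members all 6 acid rain libraries were listed at 0, in 69 the higher mean was under 1 TPM without being 0 throughout, in 50 it was 1 to 5 TPM and in 48 it was 5 TPM or more. The median ratio was 7.94, 6.82, 2.90 and 2.71 in these 4 classes, and the median Control mean was 6.94, 6.91, 9.22 and 44.2 TPM. The classes are cut on the acid rain means, which also enter the ratio and the rule. These differences among classes therefore follow in part from the choice. The 11 abundant members, with a Control mean of 100 TPM or more, mostly kept part of their level, with a median ratio of 2.80.

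**Figure D2:**
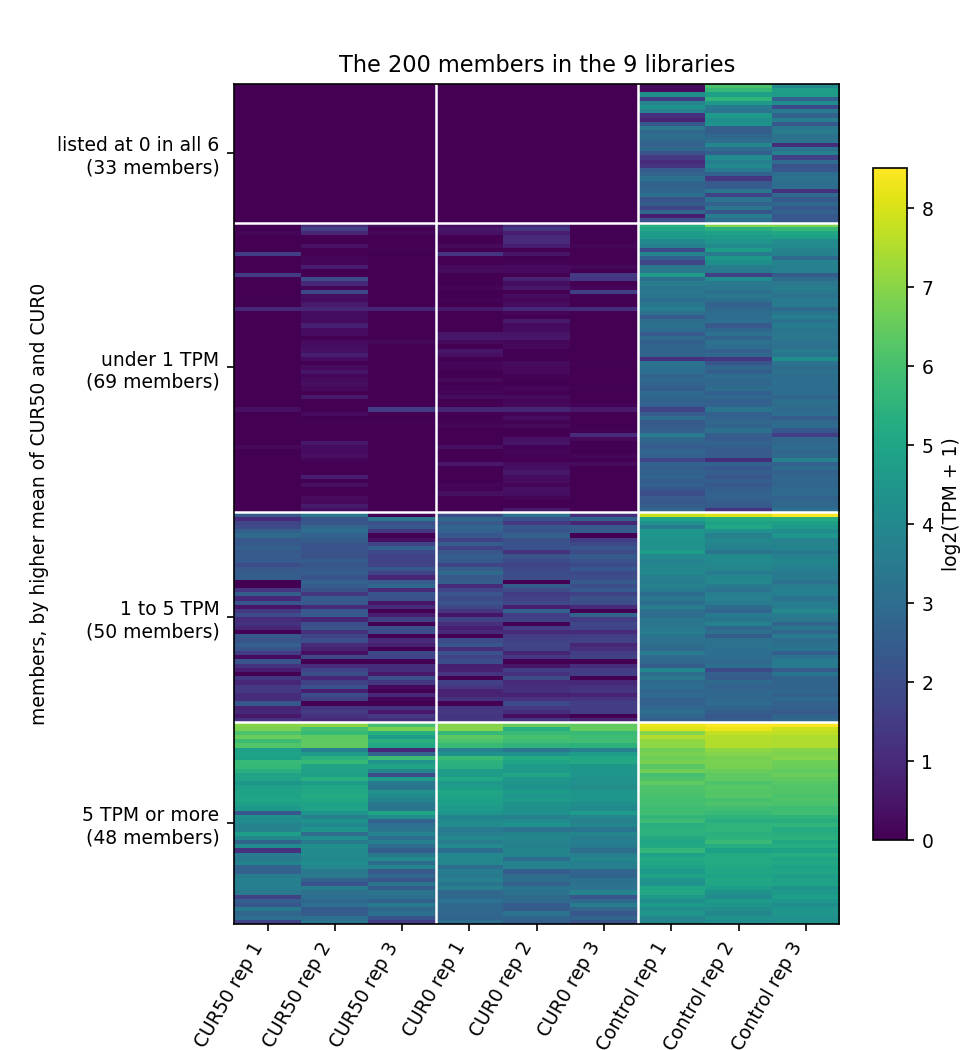
Level of each member (rows) in each library (columns) as log2(TPM + 1), shown by colour, with rows grouped by the higher of the CUR50 and CUR0 means and ordered within a group by Control mean. The 33 members of the top block are listed at 0 in all 6 acid rain libraries and vary in colour among the 3 Control libraries, and the 48 members of the bottom block keep a level in every group.

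Among these abundant members the one ranked 2 by ratio fell furthest, with a ratio of 49.7 against 8.08 for the member ranked 34. It stood at 4.37, 9.36 and 0.0600 TPM in CUR50 replicates 1, 2 and 3, at 2.98, 8.37 and 1.2 TPM in CUR0 replicates 1, 2 and 3, and at 229, 261 and 341 TPM in Control replicates 1, 2 and 3. Its Control level was among the highest of the module, and both acid rain groups, which overlapped, had lost nearly all of it.

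The member that came next in Control mean showed the partial fall. It stood at 112, 61.7 and 109 TPM in CUR50 replicates 1, 2 and 3, at 124, 40.8 and 88.5 TPM in CUR0 replicates 1, 2 and 3, and at 262, 304 and 229 TPM in Control replicates 1, 2 and 3. Its values spread widely within both acid rain groups, and the groups overlapped.

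Among the 48 members that kept 5 TPM or more, 31 were lowest in CUR50 replicate 3 among the CUR50 libraries. Their summed TPM was 1273, 1282 and 794.1 in CUR50 replicates 1, 2 and 3, 1227, 971.7 and 974.1 in CUR0 replicates 1, 2 and 3, and 3199, 3647 and 3483 in Control replicates 1, 2 and 3. Of all 14608 identifiers with a Control mean of at least 5 TPM, 16.7% of those with a value in CUR50 were lowest in this library and 48.5% were highest in it. The rule held the members' values in this library below Control, which can favour identifiers that are low in it. The part of the choice in this contrast was not tested. The median SD of the 48 members on the log2(TPM + 1) scale was 0.62 in CUR50, 0.25 in CUR0 and 0.16 in Control, against 0.32, 0.21 and 0.18 for all tested identifiers. Over all 200 members, the mean sum in CUR50 was 1249 TPM with replicate 3 and 1429 TPM without it.

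The members listed at 0 in all 6 acid rain libraries were uneven among the Control libraries. Their summed TPM in Control replicates 1, 2 and 3 was 185.7, 467.6 and 263.6. The highest of the 3 values was in replicate 2 for 18 of the 33 members, in replicate 3 for 11 and in replicate 1 for 4. For 13 of the 33 the highest Control value plus 1 was over 4 times the lowest plus 1, and 12 of these 13 were highest in replicate 2. In the class that kept 5 TPM or more no member had a spread over 2-fold on this measure. The rule bears unequally on these classes. Any Control value above 0 passes where the acid rain values are 0, while the other class needs every Control value above its acid rain values. The classes also differ in Control level, so their difference in evenness can follow in part from the choice. A spread over 4-fold was found in 1.11% of the 14608 identifiers with a Control mean of at least 5 TPM.

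**Figure D3:**
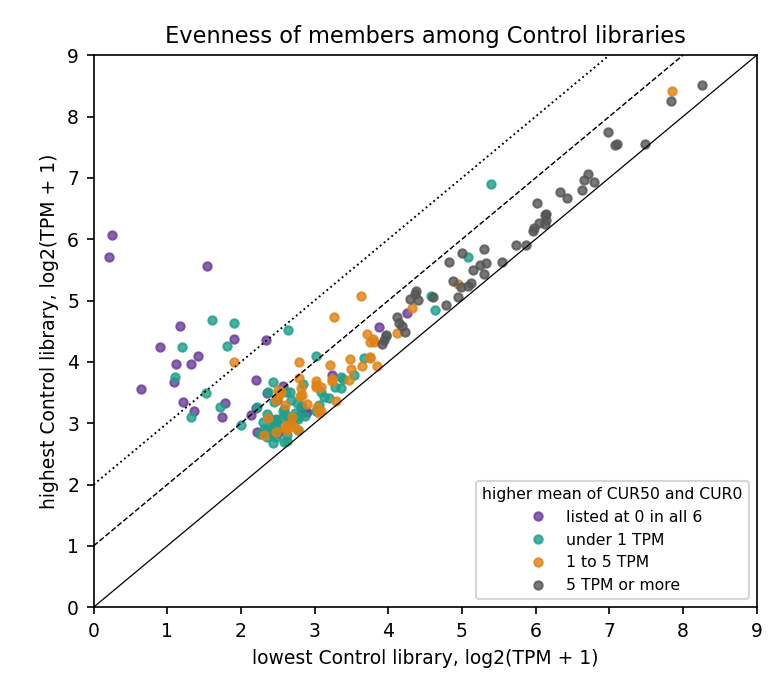
Highest against lowest Control value of each member, both as log2(TPM + 1), coloured by the higher of the CUR50 and CUR0 means; the solid line marks equal values, the dashed line a 2-fold and the dotted line a 4-fold spread. Of the 19 members above the dotted line, 13 were listed at 0 in all 6 acid rain libraries, while all 48 members that kept 5 TPM or more lie under the dashed line.

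The members ranked 3 and 4 by ratio belong to this uneven class. The member ranked 3 was listed at 0 in all 3 CUR50 libraries and all 3 CUR0 libraries, and at 0.190, 66.2 and 15.1 TPM in Control replicates 1, 2 and 3. The member ranked 4 was likewise listed at 0 in all 6 acid rain libraries, and at 0.160, 51.5 and 26.0 TPM in Control replicates 1, 2 and 3. In both, Control replicate 1 was nearly as low as the acid rain libraries, and the absence of overlap with Control rests on a value under 1 TPM. Such a value under 1 TPM occurred in Control replicate 1 for 4 members and in no member for Control replicates 2 and 3. The part that the Control libraries' own differences play in the choice of these members was not tested.

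The lowest Control value plus 1 was at least 2 times the highest acid rain value plus 1 in 124 members and under 1.2 times in 7. In TPM the gap ranged from 0.160 to 220 with a median of 4.87. An absence of overlap between Control and all 6 acid rain libraries with Control higher was found in 9.66% of the 31754 tested identifiers, and was required of every member.

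The next comparison sets CUR50 against CUR0 within the members, where the rule asks for similar means. It bounds the difference of the means, so small differences are given by the choice. The fold between the means plus 1 ranged from 0.699 to 1.49, and it was within 1.1-fold in 127 members and within 1.2-fold in 165. The mean was higher in CUR50 in 97 members, lower in 69 and equal in 34 with the values as deposited. This balance turned to 63 higher and 104 lower after quantile normalization and to 71 higher and 96 lower after median-of-ratios scaling. The median difference of all tested identifiers for CUR50 against CUR0 was 0.12 in log2(TPM + 1) as deposited, -0.01 after quantile normalization and 0.00 after median-of-ratios scaling, and members are not called higher or lower in CUR50 on this ground. All 3 CUR50 values lay below all 3 CUR0 values in 4 members (8.26% of all tested identifiers) and above them in 1 member (17.1% of all tested identifiers).

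The member whose CUR50 values all lay above CUR0 was listed at 1.1, 2.84 and 0.970 TPM in CUR50 replicates 1, 2 and 3, at 0.770, 0.720 and 0.810 TPM in CUR0 replicates 1, 2 and 3, and at 6.87, 6.32 and 5.14 TPM in Control replicates 1, 2 and 3. One CUR50 library, replicate 2, stood apart from the rest, and all of them remained under the Control range. The most abundant of the 4 members with the opposite order had 4.81, 6.19 and 5.27 TPM in CUR50 replicates 1, 2 and 3, 8.44, 6.74 and 6.44 TPM in CUR0 replicates 1, 2 and 3, and 17.3, 23.1 and 21.0 TPM in Control replicates 1, 2 and 3. The 5 members with separated CUR50 and CUR0 values were singled out after their values were seen.

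How far the values bound a difference between CUR50 and CUR0 was read from the 95% intervals of a linear model (limma with an intensity trend on log2(TPM + 1), all 9 libraries). Of the 200 members, 196 passed the filter of 1 TPM in 3 or more libraries. The 98 tested members whose higher acid rain mean was under 1 TPM or 0 are left aside, because log2(TPM + 1) can hardly show a 1.5-fold difference at such levels. Among them are the 29 tested members listed at 0 in all 6 acid rain libraries. Their intervals come from the spread of the Control libraries and from the spread that limma borrows from all tested identifiers. Their acid rain values add no spread. Of the 98 members with a higher acid rain mean of 1 TPM or more, the interval lay within 1.5-fold in both directions in 7, reached past 1.5-fold in one direction in 42 and in both directions in 49. Their median interval reached 0.77 to each side on the log2 scale, where 1.5-fold is 0.58. The spread behind these intervals is pooled over all 3 groups and moderated by limma in the same way. The rule kept only close means of CUR50 and CUR0, so the intervals centre near 0 by the choice. Their coverage need not be 95%, and the 7 within 1.5-fold are not read as absence of a difference. For the 48 members at 5 TPM or more the median SD was 0.62 in CUR50, 0.25 in CUR0 and 0.16 in Control. A pooled spread can make their intervals too narrow. For 91 of these 98 members a difference between CUR50 and CUR0 past 1.5-fold is within the interval, so the values do not show that curcumin left these transcripts at the same level.

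**Figure D4:**
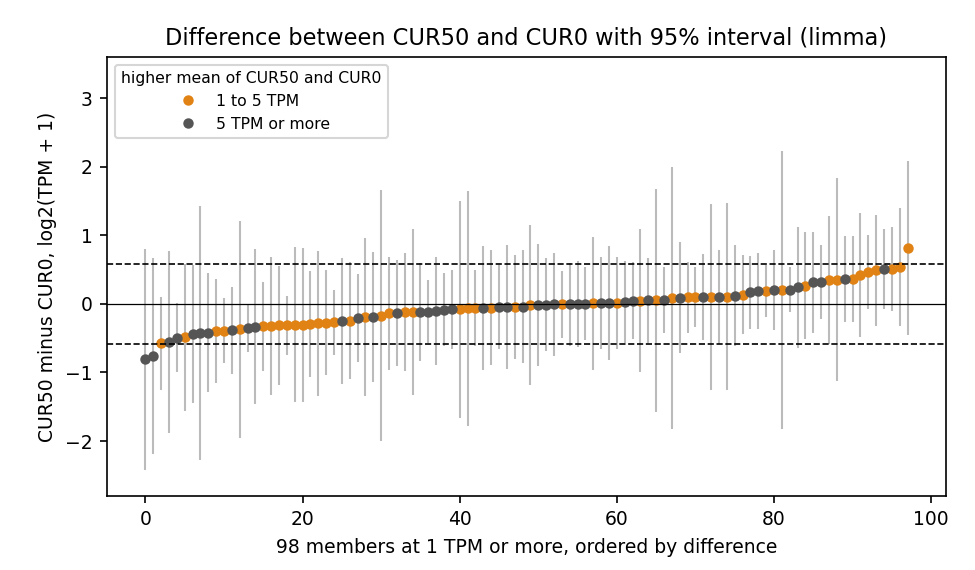
Difference of CUR50 minus CUR0 in log2(TPM + 1) for the 98 members with a CUR50 or CUR0 mean of 1 TPM or more, ordered by size (points, coloured by the higher of these means), with the 95% interval from limma (vertical lines); dashed lines mark 1.5-fold. The points lie near 0 because the rule bounds them, while the intervals of 49 members cross both dashed lines and those of 7 cross neither.

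Which members were higher in CUR50 depended on single libraries. CUR50 replicate 2 was the highest CUR50 library in 93 of the 148 members with a value above 0 in CUR50, against 33.3% of the 14608 identifiers with a Control mean of at least 5 TPM. Much of this came from values near 0. In the class under 1 TPM it was highest in 44 of 50 members, with class sums of 5.2, 22.3 and 3.28 TPM in CUR50 replicates 1, 2 and 3. It was highest in 26 of 50 members at 1 to 5 TPM and in 23 of 48 at 5 TPM or more. In CUR0, replicate 2 was also the highest library in 39 of the 63 members under 1 TPM with a value there. The class sums were 8.2, 17.8 and 9.06 TPM in CUR0 replicates 1, 2 and 3. CUR0 replicate 2 was highest in 8 of 50 members at 1 to 5 TPM and in 9 of 48 at 5 TPM or more. Of the 14608 identifiers, 19.2% of those with a value in CUR0 were highest in it. Members near 0 also enter the counts that follow. Without replicate 2 the CUR50 mean was higher than that of CUR0 in 45 members and lower in 115, and without replicate 3 it was higher in 110 and lower in 57. Without replicate 1 the numbers were 88 and 79.

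The rule left out 52 identifiers that met its other conditions but had CUR50 and CUR0 means more than 1.5-fold apart. In 28 of them CUR50 was higher than CUR0, and in 24 it was lower. The member nearest to this limit had a fold of 1.49, with means of 1.92 TPM in CUR50, 0.957 TPM in CUR0 and 6.55 TPM in Control, and the nearest identifier outside it had a fold of 1.51, with means of 48.0, 31.4 and 160 TPM in the same groups.

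Against Control, 181 of the 196 tested members were called lower in CUR50, where 6.45% of all 31754 tested identifiers were called lower (limma, Benjamini-Hochberg adjusted p under 0.05 over all tested identifiers). In CUR0, 170 were called lower against Control, where the share of all tested identifiers was 5.30%. No member was called higher in either comparison, where 6.17% of all tested identifiers were called higher in CUR50 and 2.96% in CUR0 against Control. The median difference of the tested members in log2(TPM + 1) was -2.42 for CUR50 against Control and -2.33 for CUR0 against Control, where all tested identifiers had medians of 0.03 and -0.09. The members were chosen on these differences and both comparisons use the same Control libraries, so the counts describe the choice and nothing is read from them. They also rest on each Control library: without replicate 1, 2 or 3 of Control, 51, 44 and 42 members were called lower in CUR50 and 44, 36 and 37 in CUR0, where 109 members passed the filter. Over all identifiers tested, 638 of 29929, 513 of 29805 and 449 of 29856 were called lower in CUR50 and 400, 281 and 311 in CUR0. With a filter of 1 TPM in 2 libraries, an alternative chosen after seeing the data, the counts of members were 144, 136 and 133 in CUR50 and 137, 127 and 119 in CUR0. Over all identifiers tested they were 1561 of 38536, 1335 of 38249 and 1156 of 38334 in CUR50 and 1294, 994 and 927 in CUR0.

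Between CUR50 and CUR0, limma called 0 of the 196 tested members at an adjusted p under 0.05, where 2.57% of all tested identifiers were called higher in CUR50 and 2.20% lower. At an unadjusted p under 0.05, 0 members were found, against 16.7% of all tested identifiers higher and 7.32% lower. The calls over all identifiers, 1516 in all, rest on single libraries: there were 36 without CUR0 replicate 2, 22 without CUR0 replicate 3 and 3457 without CUR50 replicate 1. The count of 0 members is fixed in part by the rule, which keeps only members with close means.

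The levels were then read in libraries that had no part in the choice. Each library was left out in turn, the rule was applied to the other 8 and the 200 largest ratios were kept. Without a CUR50 library, between 167 and 174 of the 200 identifiers chosen were members. The left-out CUR50 replicates 1, 2 and 3 lay below the lowest Control value in 197, 190 and 189 of the 200 identifiers chosen without them. Among all identifiers with a Control mean of at least 5 TPM, the same held for 47.8%, 31.1% and 30.2%.

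Without a CUR0 library, between 178 and 186 of the 200 were members. The left-out CUR0 replicates 1, 2 and 3 lay below the lowest Control value in 193, 197 and 197 of the 200, against 41.2%, 59.8% and 52.9% of all identifiers with a Control mean of at least 5 TPM. The median difference from the Control mean in log2(TPM + 1) was -2.46, -2.50 and -2.59 in the left-out CUR0 libraries, and -2.61, -2.27 and -2.65 in the left-out CUR50 libraries. The left-out acid rain libraries stood below Control for nearly all identifiers chosen without them. Their median differences lay close to those of the libraries used, which ran from -2.53 to -2.37 for CUR0 and from -2.60 to -2.40 for CUR50. The Control libraries, which had a part in every such choice, were the same on each occasion, and both differences are taken from their mean. Control values raised by the choice enter both, so the closeness follows in part from the choice. The shares over all identifiers were not chosen for Control above acid rain and do not correct for this.

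The Control libraries carried over less fully. Without a Control library, between 154 and 156 of the 200 were members. The left-out Control replicates 1, 2 and 3 lay above the highest acid rain value in 180, 175 and 168 of the 200, against 20.6%, 21.5% and 22.5% of all identifiers with a Control mean of at least 5 TPM in the other 2 Control libraries. The median difference of the left-out Control library from the mean of the acid rain libraries was 1.89, 1.94 and 1.85 in log2(TPM + 1), against 2.65, 2.58 and 2.47 for the 2 Control libraries that took part in the choice. The size of the fall read in a Control library that took no part was therefore smaller than the size in the libraries that chose the members.

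**Figure D5:**
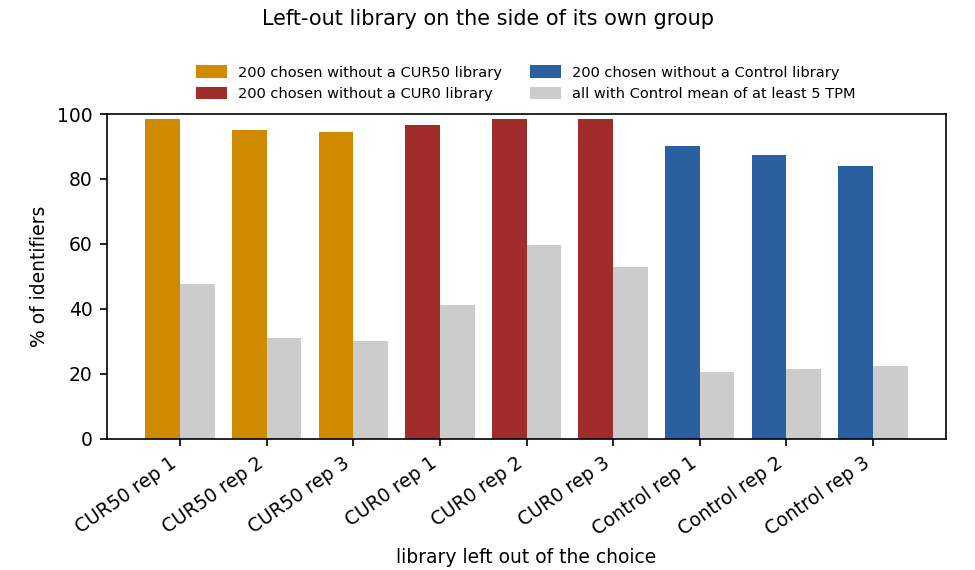
Percentage of 200 identifiers, chosen without the library on the horizontal axis, in which that library lay below the lowest Control value (CUR50 and CUR0 libraries) or above the highest acid rain value (Control libraries), beside the percentage of all identifiers with a Control mean of at least 5 TPM. The coloured bars reach from 84.0% for Control replicate 3 to 98.5%, and the grey bars from 20.6% to 59.8%. The measure differs between the acid rain and Control libraries, so their bars are not compared.

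The assembly clusters give a feature of the members that the rule did not use. The members fell into 193 clusters, and 135 members (67.5%) were alone in their cluster, against 42.6% of the 14608 identifiers with a Control mean of at least 5 TPM and 47.5% of the tested identifiers. The excess lay in the members that kept less than 5 TPM under acid rain. Those that kept 5 TPM or more were alone about as often as the 14608 identifiers. The shares are not matched for Control level. In 6 clusters more than 1 identifier was a member, 13 members in all. The largest such cluster held 3 members, all of them listed at 0 in every acid rain library. One of these is the member ranked 3 by ratio, and the others had 1.92, 46.4 and 5.42 TPM and 1.67, 16.1 and 2.36 TPM in Control replicates 1, 2 and 3. All 3 were highest in Control replicate 2 and under 2 TPM in replicate 1, and identifiers that share a cluster may not be separate observations.

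The clusters of the other 65 members also held 91 identifiers that are not members, of which 48 passed the filter. Of these 48 neighbours, 9 were called lower in CUR50 against Control, where 6.45% of all tested identifiers were, and 2 were called higher (limma, adjusted p under 0.05). In CUR0 against Control 9 were called lower, where 5.30% of all were, and 2 higher. The median difference of the neighbours in log2(TPM + 1) was -0.47 for CUR50 against Control and -0.41 for CUR0 against Control, a smaller fall than that of the members. One of the 48 met the rule itself and ranked past 200. Similar sequences of a cluster can take up the same reads, so these values are not independent of those of the members.

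Of the 58 clusters with a member and a further identifier, 4 hold members only. In the other 54 the members made up a median of 82.1% of the cluster's summed Control TPM, so a fall of the whole cluster mostly restates the choice. The non-members of a cluster, summed without the members, reached a Control mean of 5 TPM in 18 clusters. In 3 of these 18 the Control mean plus 1 was at least 2 times the higher acid rain mean plus 1, and the median ratio was 1.14, with a range of 0.423 to 8.05. With members included, the Control sum was in 2 clusters no higher than that of the higher acid rain group. In one of these, the member was listed at 0, 0 and 0 TPM in CUR50 replicates 1, 2 and 3, at 0, 1.07 and 0 TPM in CUR0 replicates 1, 2 and 3, and at 14.6, 20.5 and 16.2 TPM in Control replicates 1, 2 and 3. Its whole cluster summed to 529 ± 178 TPM in CUR50, 225 ± 38 TPM in CUR0 and 241 ± 14 TPM in Control (SD, n = 3 each). The member is a small part of that cluster, whose sum was higher in CUR50 than in the other 2 groups, the reverse of the member's own order against Control.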

How the data were processed

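RNA was extracted from leaves of 9 samples, 3 per group. The deposited table gives TPM values rounded to 2 decimals, and per the submitters' processing notes the tools were fastp, Bowtie2, RSEM and DESeq2, with no versions; the settings of the assembly are not given. Each column was assigned to the sample whose title it matches, 2 of them lacking a letter of the title.

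The rule was applied to the deposited TPM. For the description of calls, the 31754 identifiers that reached 1 TPM in 3 or more libraries were fitted with limma 3.58.1 in R 4.3.3 on log2(TPM + 1), with an intensity trend, a mean per group and 1 spread from all 9 libraries (6 residual degrees of freedom), with Benjamini-Hochberg adjustment over all identifiers tested. Differences on this scale understate the change of low values. The printed identifiers are the member with the largest ratio and the one with the highest Control mean. The members and tests were chosen with earlier results of these data known. Figures used matplotlib 3.10.9 in Python 3.11.15.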

Additional observations from a re-analysis of the deposited data

How the results depend on the processing

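The number of identifiers that met the rule was 325. It was 722 with a minimum of 1.5-fold, 137 with a minimum of 3-fold, 1124 with a Control mean of at least 1 TPM and 107 with at least 20 TPM, and it lay between 304 and 374 without any 1 library. Of the 200 members, 197 still met it after quantile normalization, 184 after median-of-ratios scaling, 161 with 0.1 TPM in place of 1 added to each mean, and between 177 and 193 without any 1 library. The count of members called lower in CUR0 against Control (170) ran from 36 to 178 without any 1 library, and that in CUR50 against Control (181) from 42 to 175. Over all identifiers tested, the calls beside the 36 and 178 were 281 of 29805 and 2716 of 30485. Those beside the 42 and 175 were 449 of 29856 and 2029 of 30485. The lowest counts came without a Control library, where only 109 members could reach 1 TPM in 3 libraries. The other settings gave 116 to 189 and 125 to 182 members. The 116 and 125 came with a filter of 5 TPM in 3 libraries, where only 133 members were tested. Over all identifiers 1300 and 1457 of 15803 were called lower there. The calls over all beside the 189 (array weights per group) were 3242 of 31754. Beside the 182 they were 2637 of 31595 after quantile normalization and 2287 of 31431 after median-of-ratios scaling. The count of members called between CUR50 and CUR0 was 0 in all settings, from 0 to 0 without any 1 library. Over all tested identifiers these calls ran from 22 without CUR0 replicate 3 to 3457 without CUR50 replicate 1. Same-numbered libraries of different groups deviated together with correlations from -0.04 to 0.09, none over 0.1. Libraries of different numbers gave -0.06 to 0.04. Such weak correlations, taken over all tested identifiers, show no clear pairing by number. They cannot exclude one, nor one confined to members near 0. A replicate block gave 151 members for CUR0 and 170 for CUR50 against Control and 0 for CUR50 against CUR0. Over all 31754 tested identifiers the block gave 1127, 1537 and 231 in the same order. The unknown depth leaves counting error unmeasured for members near 0.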

Other observations

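Of all 14608 identifiers with a Control mean of at least 5 TPM, 35 were listed at 0 in all 6 acid rain libraries. The 33 members are those of them with a value above 0 in all 3 Control libraries; 1 of the others had a value in 2 Control libraries and 1 in Control replicate 1 alone. In the opposite direction, 20 identifiers were above 0 in all 6 acid rain libraries with a mean of at least 5 TPM there and were listed at 0 in all 3 Control libraries. That condition asks for a value in 6 libraries, and the one for the 33 members in 3, so the counts are not compared.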
